A study of Mus musculus with 4 samples.

Results

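The cells described here are the basal cells of the mouse ventral prostate, picked one by one from single-cell RNA counts. A member had at least 500 unique molecular identifiers (UMIs, each standing for 1 captured transcript) and at most 20% mitochondrial counts. It carried at least 2 UMIs of the keratin genes Krt5, Krt14 and Krt15 together, and these made up at least 0.2% of its UMIs. Less than 10% of its UMIs came from the luminal secretory genes Sbp and Spink1, less than 0.2% from Smr2 and Smr2l, and less than 0.3% from the collagen genes Col1a2 and Col3a1. Of the 8091 cells that passed the limits on UMIs and mitochondrial counts, 1314 were members. The 9 genes named in the rule chose the cells, so their values are given as a description and were not tested.

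The study compared 2 sham mice with 2 mice of a group coded te2, as part of work on disturbed steroid hormone levels. All 4 were wild-type (wt) C57BL6j animals, and their ventral lobes were collected 2 weeks after implantation of hormone pellets. The code te2, the content of the pellets, whether sham animals carried an empty pellet, and the animals' ages are not given in the sources used here. Each library holds the paired lobes of 1 animal, dissociated at low temperature with a bacterial protease, so the comparison measures the spread between 2 animals a group.

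Basal cells form the outer layer of the prostate epithelium, between the secretory luminal cells and the basement membrane. They are known by Krt5, Krt14 and the transcription factor gene Trp63, which maintains basal identity in stratified epithelia. Hemidesmosomes, built on the integrin pair of Itga6 and Itgb4, anchor them to laminin in the basement membrane. In the rodent prostate the luminal layer shrinks when androgen is withdrawn, while most basal cells persist, and basal cells can act as progenitors after injury.

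The libraries differed in depth. The sham libraries held 3999690 and 5513275 UMIs in all, those of te2 12259610 and 13134017 UMIs, over 2250 to 3078 cells a library. Any pair of libraries shared 1 to 5 cell barcodes. Among members a cell had a median of 902.5 and 1029.5 UMIs (sham) or 2196 and 2616.5 UMIs (te2), and their summed UMIs were 45286, 183238, 1334459 and 1605678 for sham 1, sham 2, te2 1 and te2 2. One count in the sham 1 sum, which rests on 44 cells, was therefore worth 22.9 CPM (counts scaled to a common library total), against 5.65 in sham 2, 0.751 in te2 1 and 0.626 in te2 2. Free RNA also differed. Sbp and Spink1 made up 17.8% and 23.4% of the UMIs of sham barcodes with fewer than 500 UMIs, and 2.19% and 3.72% in te2.

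Basal cells were a larger part of the te2 libraries than of the sham libraries. There were 44 and 160 members among 1638 and 2017 kept sham cells, and 550 and 560 among 2324 and 2112 kept te2 cells. Their share was 2.69% in sham 1 (95% exact binomial interval 1.96 to 3.59), 7.93% in sham 2 (6.79 to 9.2), 23.7% in te2 1 (22 to 25.4) and 26.5% in te2 2 (24.6 to 28.5). Both te2 shares lay above both sham shares. The rule needs 2 keratin UMIs and so depends on depth, but with every kept cell thinned to 500 UMIs the shares were 1.89%, 5.65%, 20.2% and 24.2%, in the same order. Intervals cover counting error only, and an exact two-sided permutation test over 2 libraries against 2 cannot go below p = 0.33. A share also moves with the other cells of a library: luminal cells, with at least 10% of their UMIs from Sbp and Spink1, numbered 1049 and 1276 in sham and 380 and 470 in te2. More basal cells, fewer luminal cells and unequal release of cells during dissociation cannot be told apart from these shares.

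**Figure D1:**
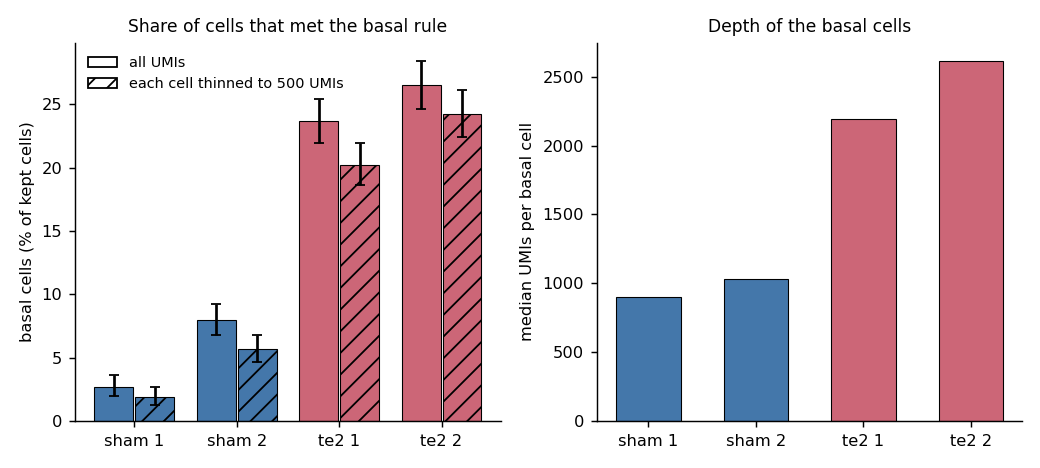
Left, basal cells as a percentage of kept cells in each library, with all UMIs (plain bars) and with each kept cell thinned to 500 UMIs (hatched bars); error bars are exact 95% binomial intervals. Right, median UMIs per basal cell. The te2 bars stand at 20.2% to 26.5% and the sham bars at 1.89% to 7.93%, and the te2 members were the deeper cells.

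Members near the limits of the rule were more frequent in sham. Exactly 2 keratin UMIs were found in 12 and 21 of the sham members and in 15 and 9 of the te2 members. The median keratin content was 0.363% and 0.404% of a cell's UMIs in sham and 0.913% and 1.20% in te2. Just inside the lower limit, with 0.2% to 0.3% keratin UMIs, were 16 and 38 sham and 44 and 33 te2 members. Just outside, 7 and 16 sham and 63 and 63 te2 cells had at least 2 keratin UMIs but only 0.1% to 0.2%. A further 28 and 55 sham and 126 and 103 te2 cells carried 1 keratin UMI and met the limits on the other genes. The limit on Sbp and Spink1 removed 4 and 10 sham and 2 and 1 te2 cells that met the keratin limits, and the limit on Smr2 and Smr2l removed 0 and 0 sham and 39 and 12 te2 cells.

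The 3 keratin genes of the rule had unequal values. In the summed counts Krt5, which encodes the basic partner of the basal keratin filament, stood at 1102 and 1400 CPM in sham and 1124 and 1334 CPM in te2. The values overlapped between the groups. Krt14, its acidic partner, stood at 102 and 195 CPM in sham and 540 and 615 CPM in te2. Krt15, another acidic keratin of basal layers, stood at 2469 and 3323 CPM in sham and 8945 and 11432 CPM in te2. For Krt14 and Krt15 both te2 libraries lay above both sham libraries. These CPM, like those of the comparison below, are scaled by TMM factors over sums without the free RNA genes. With each member thinned to 500 UMIs, Krt15 was the only one of the 3 keratins seen in 38.6% and 42.5% of sham members and 42.2% and 40.9% of te2 members. Krt5 with Krt15 was seen in 34.1%, 30.6%, 31.3% and 34.6%, and all 3 together in 2.27% and 0.625% of sham and 9.64% and 10.7% of te2 members.

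The label was set beside basal markers that the rule did not use. Trp63 stood at 458, 266, 352 and 363 CPM in the basal cells of sham 1, sham 2, te2 1 and te2 2, here scaled by totals alone, and at 5.51, 9.44, 3.83 and 2.50 CPM in all other kept cells. With cells thinned to 500 UMIs, a Trp63 UMI was found in 11.4%, 13.1%, 15.3% and 18.4% of members, against at most 0.191% of luminal cells. Without thinning the shares were 29.5%, 22.5%, 48.5% and 56.8%. At least 1 of Trp63, Lgals7, Tgm2 and Col18a1 was seen in 77.3%, 82.5%, 66.0% and 68.9% of thinned members, and in 1.33%, 1.25%, 0.789% and 0.213% of thinned luminal cells. Luminal cells were deeper before thinning, with medians of 1572 (sham 1), 2465.5 (sham 2), 8225.5 (te2 1) and 10454 (te2 2) UMIs. Of 15 basal markers outside the rule 14 were in the tables. Members of sham 1 lacked Dsc3 and Aqp3 and members of sham 2 lacked Dsc3, while all 14 were detected in both te2 libraries. Lgals7, Tgm2 and Col18a1 were taken as markers of these cells with earlier results of these data known. Their contrast is therefore a description and no independent check of the label. Trp63, outside that set, was also higher in members than in the other kept cells of each library.

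Genes that set members apart from all other kept cells of their library were not confined to keratins. Cp, the gene of the copper-binding ferroxidase ceruloplasmin, stood at 2519, 1662, 1146 and 1069 CPM by totals in basal cells and at 64.3, 48.3, 24.7 and 21.3 CPM elsewhere. For Pdgfa, a growth factor ligand whose receptor is carried by stromal cells, the basal values were 2175, 1583, 1335 and 1484 CPM, and 69.4, 62.8, 47.3 and 47.7 CPM elsewhere. Jag2, a Notch ligand gene, stood at 298, 333, 198 and 191 CPM in basal cells and at 9.18, 6.20, 1.55 and 2.08 CPM elsewhere. Padi1, which encodes an enzyme that turns arginine into citrulline in proteins, stood at 206, 198, 182 and 157 CPM against 3.67, 4.04, 0.932 and 1.25 CPM. The laminin gene Lamb3, the collagen genes Col4a2 and Col16a1, and the retinol dehydrogenase gene Rdh12 were likewise higher in basal cells of all 4 libraries. Every cell was sorted by its own counts, so these contrasts are descriptions.

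**Figure D2:**
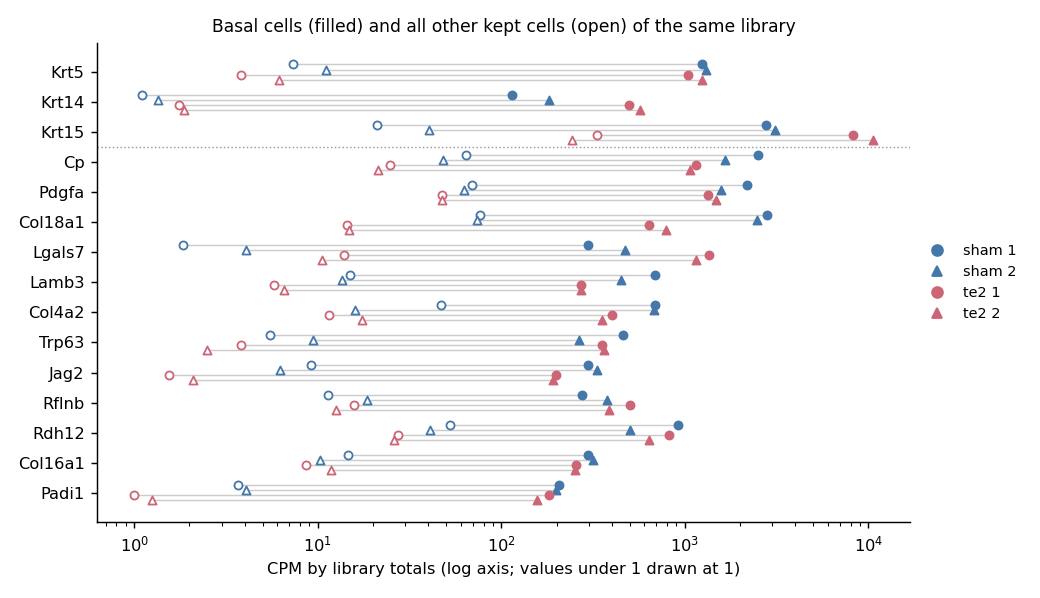
CPM by library totals (log axis) of the 3 keratin genes of the rule, above the dotted line, and of 12 further genes, in basal cells (filled) and in all other kept cells (open) of each library. The keratins chose the members. The other 12 were picked for the highest ratio of basal to other kept cells (20 CPM added to each), taken in the library where it was lowest. Filled symbols thus lie to the right of the open ones in all 4 libraries by choice of genes. Trp63 stood at 266 to 458 against 2.50 to 9.44 CPM.

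Markers of some other cell types were lower in the basal sums than in the other kept cells, and those of others were not. Of 9 macrophage markers 3, 3, 8 and 9 were detected in sham 1, sham 2, te2 1 and te2 2, and they summed to 68.7, 17, 49.6 and 53.9 CPM against 434 to 1288 CPM in the other kept cells. Urothelial and lymphatic endothelial markers were also lower in the basal sums of all 4 libraries. The fibroblast markers, of which 3, 8, 8 and 9 of 9 were detected, summed to 2541, 1718, 1891 and 2674 CPM, above the other kept cells in all libraries but sham 1. Among the fibroblast markers are Col1a2 and Col3a1, which the rule limits in members. The largest value in that list was for Dcn, the gene of the matrix proteoglycan decorin, at 2183, 1753, 1990.4 and 2813 CPM on the TMM scale. Col1a1, a defining fibroblast gene, was at 0 in both sham sums and was detected in both te2 sums. Smooth muscle and pericyte markers, of which 3, 3, 3 and 5 of 8 were detected, summed to 114, 96.1, 64.6 and 58.3 CPM, above the other kept cells in all 4 libraries (43.7, 20.5, 24.7 and 13.8 CPM). Actg2, Rgs5 and Pdgfrb were at 0 in each basal sum. Blood endothelial markers, with 1, 3, 5 and 5 of 8 detected, summed to 91.6, 90.4, 49.6 and 34.5 CPM, above the other kept cells in sham (76.0 and 69.6 CPM) and below them in te2 (59.7 and 45.2 CPM), with Cdh5, Kdr and Plvap at 0 in every basal sum. T and NK cell markers, with 1, 2, 5 and 6 of 7 detected, summed to 114, 136, 67.6 and 74.5 CPM, above the other kept cells in sham (92.9 and 74.4 CPM) and below them in te2 (85.6 and 90.8 CPM), with Trac at 0 in every basal sum. The part of such cells in the results below was not tested. Sbp and Spink1 made up 3.50% and 3.42% of the summed basal UMIs in sham and 0.260% and 0.574% in te2, against 25.4% to 31.6% in luminal cells. They were left out of the sums below, with the hemoglobin genes, as free RNA.

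The main comparison asked how basal cells of te2 differed from those of sham. Counts were summed over the members of each library and tested with the quasi-likelihood test of edgeR. Of 8783 genes, 650 (7.4%) passed a false discovery rate of 0.05, 411 of them higher in te2 (4.68%) and 239 lower (2.72%). At an unadjusted p under 0.05 there were 1829. The median log2 change of all genes was 0.07. Values of te2 lay above both sham values in 32.6% of genes and below both in 21.8%. With the sums thinned to the total of the smallest, 43676 UMIs, 794 genes could be tested and 73 passed (9.19%), 67 of which had also passed at full depth. The count rested on more than 1 library: it was 627 without sham 1, 311 without sham 2, 218 without te2 1 and 148 without te2 2. Of the 411 higher genes, 54 had 3 or fewer counts in sham. With 2 animals a group, edgeR borrows most of its estimate of spread from other genes, so a small p says little on how a single gene varies from mouse to mouse.

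Some changed genes were more abundant in other cells of the same libraries. Among the higher genes 185, and among the lower genes 192, stood in basal cells at or above their level in the other kept cells, in both libraries of the group where they were higher. The 20 genes described next come from these. They also passed, in the same direction, with thinned sums, and their libraries did not overlap between the groups.

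Of the 10 largest rises among them, that of Ndfip1 was the largest. Ndfip1, whose product recruits ubiquitin ligases of the Nedd4 family to membranes, stood at 20.4 and 73.0 CPM in sham and 314 and 378 CPM in te2. It rose by 2.52 ± 0.36 on the log2 scale (± is the standard error throughout; edgeR adjusted p = 2.42e-06). Ubb, a polyubiquitin gene, stood at 245 and 280 CPM in sham and 1043 and 1321 CPM in te2, a log2 change of 2.13 ± 0.27. Ctsl, the gene of the lysosomal protease cathepsin L, stood at 184 and 195 CPM in sham and 784 and 870 CPM in te2, a log2 change of 2.11 ± 0.28. In each of these genes both te2 libraries lay far above both sham libraries. Hspb1, a small heat shock protein gene, stood at 40.8 and 201 CPM in sham and 525 and 531 CPM in te2 (log2 change 1.72 ± 0.29). The 2 sham libraries differed from each other more than the te2 libraries did. Cd9, which encodes a tetraspanin of the cell surface, stood at 326 and 682 CPM in sham and 1566 and 1853 CPM in te2 (log2 change 1.59 ± 0.26).

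The other 5 of the largest rises were Sfr1, a recombination repair gene (log2 change 1.78 ± 0.29), the tetraspanin gene Tspan3 (1.52 ± 0.30), the membrane protein gene Itm2b (1.5 ± 0.28), the histone variant gene H3f3b (1.44 ± 0.29) and Atp5d, a subunit of the mitochondrial ATP synthase (1.30 ± 0.27). Tspan3 and Atp5d did not pass when every member was thinned to 500 UMIs. The other 8 rising genes passed in all 17 alternatives that were run, including each that left out a library. Summed depth moved with the groups in all of these comparisons, and its part was tested only by thinning.

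Of the 10 largest falls, that of Fmod was the largest. Fmod, which encodes the collagen-binding proteoglycan fibromodulin, stood at 245 and 390 CPM in sham and 52.9 and 94.6 CPM in te2. Its log2 change was -2.22 ± 0.28 (edgeR adjusted p = 1.28e-07), and it did not pass with members thinned to 500 UMIs. Tgm2, a transglutaminase gene that cross-links matrix proteins, stood at 775 and 1339 CPM in sham and 289 and 302 CPM in te2 (log2 change -1.95 ± 0.21, adjusted p = 3.92e-09). Col18a1, the collagen XVIII gene of the basement membrane, stood at 2509 and 2666 CPM in sham and 693 and 857 CPM in te2 (log2 change -1.75 ± 0.23, adjusted p = 2.57e-07). The te2 values of Col18a1 were less than the lower sham value in both libraries, and replicates of a group lay close together. Vcan, the versican gene, stood at 306 and 365 CPM in sham and 85.4 and 121 CPM in te2 (-1.74 ± 0.26). Adamts9, a secreted protease gene whose product cleaves versican, stood at 306 and 274 CPM in sham and 103 and 83.1 CPM in te2 (-1.61 ± 0.27), and did not pass with a stricter keratin limit. Prelp, the gene of a proteoglycan that links basement membrane to collagen, stood at 939 and 530 CPM in sham and 285 and 276 CPM in te2 (-1.23 ± 0.22).

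Ccnd2, a D-type cyclin gene, fell in basal cells as well. It stood at 592 and 730 CPM in sham and 232 and 232 CPM in te2, a log2 change of -1.57 ± 0.21 (edgeR adjusted p = 3.19e-07). The RNA-binding protein gene Rbm4b fell by 1.55 on the log2 scale and the transcription factor gene Maf by 1.34. Tgm2, Col18a1, Vcan, Ccnd2, Rbm4b, Maf and Prelp passed in all 17 alternatives. Lipe, the hormone-sensitive lipase gene, stood at 245 and 353 CPM in sham and 133 and 74.3 CPM in te2 (-1.66 ± 0.28). Its call was lost without sham 2 (-1.18, adjusted p = 0.193) and without te2 2 (-1.28, adjusted p = 0.0598).

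**Figure D3:**
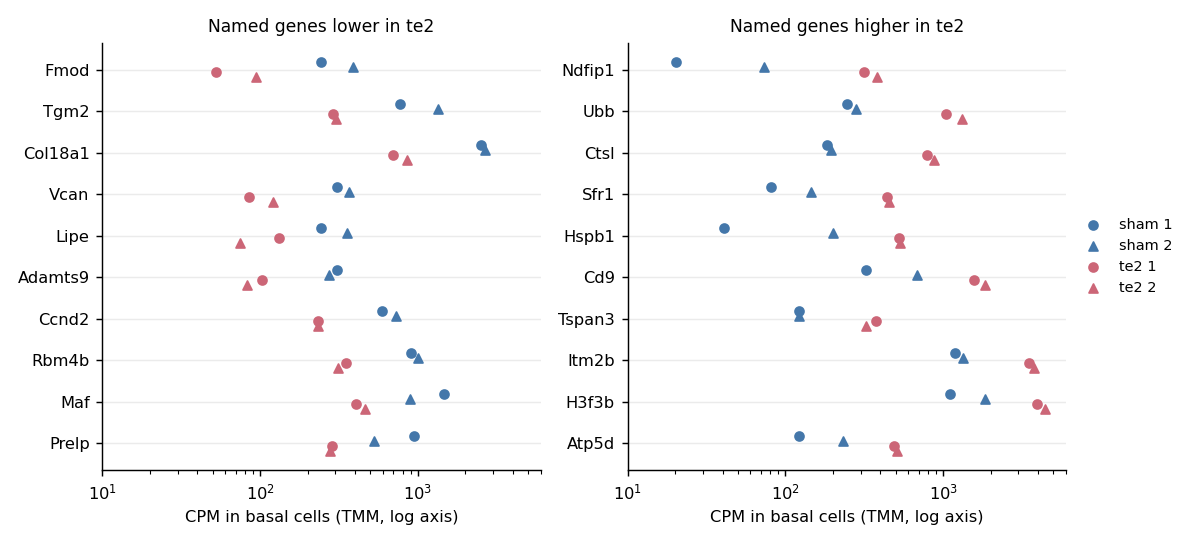
CPM (TMM-scaled, log axis) in the basal cells of each library for the 10 named genes that fell (left) and the 10 that rose (right); each symbol is 1 library. Sham and te2 symbols do not overlap in any row, because no overlap was a condition for naming a gene. Ndfip1 stood at 20.4 and 73.0 CPM in sham against 314 and 378 CPM in te2, and Col18a1 at 2509 and 2666 against 693 and 857 CPM.

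Basal marker genes did not move as a block. Of the 13 markers tested outside the rule, 2 rose and 3 fell, with a median log2 change of -0.20 against 0.07 for all genes. Over all genes 4.68% rose and 2.72% fell, the shares against which the counts of this list and those below are to be read. Trp63 stood at 408 and 286 CPM in sham and 381 and 391 CPM in te2, a log2 change of 0.27 ± 0.24 (edgeR adjusted p = 0.575). The te2 values lay between the sham values. Integrin genes of the hemidesmosome, Itga6 (-0.40 ± 0.22, adjusted p = 0.289) and Itgb4 (-0.20 ± 0.27, adjusted p = 0.741), the anchoring collagen gene Col17a1 (0.59 ± 0.30, adjusted p = 0.253), the cadherin gene Cdh3 (-0.25 ± 0.27, adjusted p = 0.652), Krt17 (-0.01 ± 0.42, adjusted p = 0.998) and the caveolin gene Cav1 (-0.75 ± 0.58, adjusted p = 0.494) did not pass. Lgals7, which encodes galectin-7, a lectin of stratified epithelia, stood at 265 and 511 CPM in sham and 1463 and 1247 CPM in te2. It rose by 1.63 ± 0.26 (adjusted p = 2.05e-05), and with thinned sums the change was 1.23 (adjusted p = 0.0567). A Lgals7 UMI was seen in 13.6% and 17.5% of sham members and 43.5% and 37.1% of te2 members after thinning to 500 UMIs, and in at most 0.263% of luminal cells. Sfn, the stratifin gene, had 5 counts in sham (61.2 and 12.2 CPM) and 507 in te2 (189 and 186 CPM). Its log2 change of 2.98 ± 0.49 was 1.69 without sham 2 (adjusted p = 0.191). Dsc3, a desmosomal cadherin gene, was in neither sham table and stood at 48.0 and 17.6 CPM in te2 (adjusted p = 0.0562), so no fold is given. Dst, which links keratin filaments to the hemidesmosome, changed by -0.72 ± 0.22 (adjusted p = 0.0301), a call lost in 11 alternatives, with values from -0.95 to -0.50.

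Among 19 tested keratins of simple epithelium and stratification genes, 7 rose, 2 fell and 10 did not pass, and the median log2 change was 0.93. With thinned sums 2 of 10 rose (4.91% of all genes did) and 1 fell (4.28%). With members thinned to 500 UMIs 3 of 15 rose (2.04% of all genes did) and 0 fell (2.17%). Without sham 2 the counts were 4 and 0, without te2 1 they were 5 and 0, and without te2 2 they were 4 and 0. Krt18 stood at 408 and 469 CPM in sham and 1138 and 972 CPM in te2 (log2 change 1.23 ± 0.25, edgeR adjusted p = 0.0007). Krt8, its usual filament partner, went the other way, from 898 and 858 CPM to 487 and 493 CPM (-0.83 ± 0.21, adjusted p = 0.00738). At equal depth Krt8 did not pass, with -0.92 (adjusted p = 0.0715) for thinned sums and -0.82 (adjusted p = 0.0631) for members thinned to 500 UMIs. The fall of Krt8 did not pass without sham 2 (-0.80, adjusted p = 0.0827), te2 1 (-0.86, adjusted p = 0.146) or te2 2 (-0.89, adjusted p = 0.166). Krt19 stood at 40.8 and 97.4 CPM in sham and 242 and 218 CPM in te2 (1.46 ± 0.34, adjusted p = 0.00375; 1.39 and adjusted p = 0.0507 without te2 1). Krt7 (0.93 ± 0.29), the protease inhibitor gene Cstb (0.94 ± 0.26) and the fatty acid binding protein gene Fabp5 (1.98 ± 0.53) also rose. Without te2 2 none of these 3 passed, and calls were also lost without sham 1 and te2 1 (Krt7), sham 2 and te2 1 (Cstb) or sham 2 (Fabp5). With members thinned to 500 UMIs Krt7 (0.28, adjusted p = 0.745), Cstb (0.76, adjusted p = 0.205) and Fabp5 (2.29, adjusted p = 0.12) did not pass. Krt19 did not pass there either (1.51, adjusted p = 0.155). With thinned sums Krt7 (1.24, adjusted p = 0.165) and Cstb (0.56, adjusted p = 0.276) did not pass. With a stricter keratin limit Krt18 did not pass (1.08, adjusted p = 0.0614). In other kept cells the levels by totals were 783, 986, 1415 and 1427 CPM for Krt18 and 178, 279, 450 and 539 CPM for Krt19, above those in basal cells. The part of free RNA from luminal cells in the rises of Krt18 and Krt19 was tested only by subtraction, after which both passed. Krt7 (0.86, adjusted p = 0.146), Fabp5 (1.87, adjusted p = 0.0858) and the fall of Krt8 (-0.86, adjusted p = 0.054) did not pass after subtraction.

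Of 26 tested genes of the hemidesmosome and basement membrane, 11 fell (2.72% of all genes did) and 0 rose, and the median log2 change was -0.53. In 16 of the 26, both te2 libraries lay below both sham libraries, as in 21.8% of all genes. Beside Tgm2 and Col18a1, the falls included the syndecan genes Sdc4 (449 and 432 CPM in sham, 206 and 224 CPM in te2, -1.02 ± 0.23) and Sdc1 (836 and 1047 CPM in sham, 549 and 514 CPM in te2, -0.87 ± 0.21). Syndecans are heparan sulfate proteoglycans of the cell surface. The perlecan gene Hspg2 (-1.09 ± 0.35), the agrin gene Agrn (-0.90 ± 0.22), Lamb3 (-0.82 ± 0.22), Col4a2 (-0.76 ± 0.21), the laminin-binding integrin gene Itga3 (-0.88 ± 0.28) and the plectin gene Plec (-0.81 ± 0.24) fell too. Not every basement membrane gene did: Col4a1, which shares a promoter region with Col4a2, had a log2 change of 0.68 ± 0.23 (adjusted p = 0.0632) and Lama3 one of -0.02 ± 0.28 (adjusted p = 0.988). The count of 11 depended on single libraries. It was 10 without sham 1, 2 without sham 2, 2 without te2 1 and 2 without te2 2, Tgm2 and Col18a1 being among them each time. Without sham 1, and without sham 2, 1 gene of the list rose. With thinned sums 4 of 14 fell (4.28% of all genes did), with members thinned to 500 UMIs 4 of 24 fell (2.17%) and 1 rose, and with a stricter keratin limit 3 of 26 fell. With free RNA subtracted 3 of 26 fell, as did 137 of all 8335 genes. DESeq2 gave 4 of 23 (50 of all 8783), and members of at least 1000 UMIs 6 of 26 (156 of all 8461).

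Promoter sequence is shown for 2 basal markers outside the rule that moved in opposite directions, Col18a1, which is also in the basement membrane list, and Lgals7, which is not. The sequences are the 250 bases before a transcription start in the RefSeq table of build GRCm38.p6, an earlier build than the GRCm39 of the counts, matched by symbol. Capitals mark the GC box, GGGCGG on either strand (CCGCCC on the printed one). For Col18a1, chr10:77166531-77166780 on the minus strand, read towards the gene, and for Lgals7, chr7:28864136-28864385 on the plus strand:
Col18a1: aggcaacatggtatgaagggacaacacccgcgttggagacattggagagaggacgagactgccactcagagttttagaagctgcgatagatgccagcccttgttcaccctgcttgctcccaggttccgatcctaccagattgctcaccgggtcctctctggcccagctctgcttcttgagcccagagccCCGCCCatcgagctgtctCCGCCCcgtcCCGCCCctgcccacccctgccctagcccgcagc
Lgals7: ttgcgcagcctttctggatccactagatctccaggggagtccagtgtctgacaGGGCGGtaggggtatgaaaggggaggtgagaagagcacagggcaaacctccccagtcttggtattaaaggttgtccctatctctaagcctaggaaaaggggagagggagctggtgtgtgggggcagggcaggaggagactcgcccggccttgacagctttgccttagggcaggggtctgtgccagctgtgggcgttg
Col18a1 held 3 GC boxes before this start and 0 before its other start in the table, and Lgals7 held 1. Of the 11 members of the hemidesmosome and basement membrane list that fell, 9 matched the table, and 8 of the 9 held a GC box before at least 1 start. Among the other 15 tested members 10 matched, and 6 of those held it, while it was found for 35.4% of all 27025 genes of the table. Counted by start, the GC box stood before 10 of 14 starts of the members that fell. It stood before 6 of 11 starts of the other members and 32.7% of all 32851 starts. Of the named genes that matched, 5 of 9 rising and 5 of 7 falling genes held it. An AP-1 site, TGANTCA on either strand, was found in 0 of the 9 matched list members that fell and in 7.82% of all genes. A match is a description of the letters, and no binding was measured.

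Of 13 desmosome and adherens junction genes tested, 0 rose and 1 fell. Perp, a desmosomal membrane gene and p63 target, stood at 877 and 919 CPM in sham and 541 and 584 CPM in te2 (log2 change -0.68 ± 0.21, edgeR adjusted p = 0.0337). That call was lost in 11 alternatives, with values from -0.78 to -0.51. The plakoglobin gene Jup stood at 204 and 317 CPM in sham and 238 and 204 CPM in te2 (adjusted p = 0.42). Among 22 transcription factor, Notch and Id genes, 1 rose. Tsc22d1, a leucine zipper gene induced by TGF-beta, stood at 102 and 103 CPM in sham and 238 and 289 CPM in te2 (1.36 ± 0.32, adjusted p = 0.00393). Its call was lost without sham 2 (1.45, adjusted p = 0.139) and without te2 2 (1.17, adjusted p = 0.150). The log2 changes of Jag2 (-0.67 ± 0.24, adjusted p = 0.0764), Klf6 (1.20 ± 0.42, adjusted p = 0.0653) and Id1, with 6 counts in sham (-1.70 ± 0.71, adjusted p = 0.143), did not pass.

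No steroid or prolactin receptor gene passed among 7 tested. Esr1, the estrogen receptor alpha gene, had 9 counts in sham and 35 in te2, which is 61.2 and 36.5 CPM against 12.2 and 13.5 CPM (log2 change -1.71 ± 0.63, edgeR adjusted p = 0.0855). Prlr, the prolactin receptor gene, stood at 61.2 and 36.5 CPM in sham and 55.3 and 60.1 CPM in te2 (adjusted p = 0.683), against 285 to 338 CPM by totals in the other kept cells. At 9 counts a gene in sham, only large differences could be detected for Esr1 and Prlr. In the estrogen response list, 2 of 12 rose, Krt19 and the kinase gene Sgk1 (1.61 ± 0.48), and 0 fell. Sgk1 had 8 counts in sham and lost its call without sham 1, te2 1 or te2 2, with values of 1.25, 1.48 and 1.75.

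Of 15 androgen-regulated prostate genes, 1 rose and 1 fell. Hoxb13, a homeobox gene of the prostate, stood at 286 and 353 CPM in sham and 672 and 613 CPM in te2 (log2 change 0.94 ± 0.24, edgeR adjusted p = 0.00939). It lost its call without te2 1 (0.87) or te2 2 (0.99). At equal depth it did not pass either, with 0.50 (adjusted p = 0.345) for thinned sums and 0.81 (adjusted p = 0.122) for members thinned to 500 UMIs. Nor did it pass with a stricter keratin limit (0.79, adjusted p = 0.213) or members of at least 1000 UMIs (0.86, adjusted p = 0.0563). Msmb, a secreted luminal product, had its 27 sham counts all in sham 2 (0 and 164 CPM, against 34.2 and 23.6 CPM in te2, -2.09 ± 0.47), and the sign turned without that library. In the other kept cells Msmb stood at 18.0 and 1577 CPM by totals in sham and 250.4 and 279.5 CPM in te2, so the sham libraries differed from each other there too. The glucocorticoid-inducible gene Tsc22d3 stood at 61.2 and 97.4 CPM in sham and 151 and 199 CPM in te2 (0.99 ± 0.35, adjusted p = 0.0721).

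Growth factor and cytokine genes changed in both directions, with 2 of 20 higher and 4 lower. Il33, the gene of an alarmin cytokine stored in epithelial nuclei, stood at 20.4 and 73.0 CPM in sham and 199 and 209 CPM in te2 (log2 change 1.76 ± 0.38, edgeR adjusted p = 0.00142). It passed without each library in turn, but not with members thinned to 500 UMIs (1.80, adjusted p = 0.0632). Il33 stood by totals at 9.53 and 18.9 CPM in the other kept te2 cells. The IGF binding protein gene Igfbp5 stood at 1081 and 1284 CPM in sham and 617 and 723 CPM in te2 (-0.85 ± 0.21), and Igfbp7 at 0 and 97.4 CPM in sham and 259.6 and 175 CPM in te2 (1.55 ± 0.39). Csf1, a macrophage growth factor gene, had 14 counts in sham and 31 in te2 (61.2 and 67.0 CPM against 9.76 and 12.8 CPM, -2.50 ± 0.56). The calls of Igfbp5 and Csf1 were lost without sham 2 (-0.61 and -2.33), te2 1 (-0.76 and -2.34) or te2 2 (-1.0 and -2.74), and that of Igfbp7 without te2 1 (1.26). With members thinned to 500 UMIs Igfbp7 changed by 0.49 (adjusted p = 0.627) and Igfbp5 by -0.79 (adjusted p = 0.0552). With thinned sums Igfbp5 changed by -0.53 (adjusted p = 0.165). Igfbp7 also did not pass with a stricter keratin limit (0.82, adjusted p = 0.402), free RNA subtracted, DESeq2 or members of at least 1000 UMIs. Pdgfa, among the genes that mark the members, had a log2 change of -0.24 ± 0.24 (adjusted p = 0.618).

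In the cell cycle list of 20 tested genes, 1 rose and 2 fell. Beside Ccnd2, the proliferation marker Mki67 stood at 102 and 97.4 CPM in sham and 27.7 and 33.8 CPM in te2, on 21 and 84 counts (log2 change -1.67 ± 0.45, edgeR adjusted p = 0.0127). Its call was lost without sham 2 (-1.64, adjusted p = 0.315), te2 1 (-1.56, adjusted p = 0.147) or te2 2 (-1.86, adjusted p = 0.128). Other genes of S phase and mitosis did not pass, among them Top2a (-1.12 ± 0.63) and Pcna (-0.26 ± 0.42). Cdkn1c, the gene of the CDK inhibitor p57, rose from 20.4 and 134 CPM to 261 and 309 CPM (1.43 ± 0.33, adjusted p = 0.00293; 1.33 and adjusted p = 0.0791 without te2 2). It stood at 8.90 to 18.4 CPM by totals in the other kept cells.

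In the list of glutathione, thioredoxin and iron defence, 11 of 27 genes rose (4.68% of all genes did) and 0 fell, with a median log2 change of 0.88 against 0.07 for all genes. At equal depth few of them passed: 1 of 12 with thinned sums (4.91% of all genes rose there) and 2 of 19 with members thinned to 500 UMIs (2.04%). Leaving out 1 library gave 7 (sham 1), 7 (sham 2), 5 (te2 1) and 4 (te2 2) higher, and 0 lower each time. Peroxiredoxin genes, whose products reduce peroxides with thioredoxin or glutathione, were among them. Prdx1 stood at 286 and 670 CPM in sham and 1417 and 1391 CPM in te2 (log2 change 1.36 ± 0.26, edgeR adjusted p = 0.000302) and passed in all 17 alternatives. Prdx2 (1.32 ± 0.26), Prdx5 (1.36 ± 0.30) and Prdx6 (1.18 ± 0.28) rose, the calls of Prdx5 and Prdx6 being lost without te2 2 (1.33 and 1.01) and that of Prdx6 also without sham 2 (1.19). The ferritin light chain gene Ftl1 (1.02 ± 0.26) rose, with 0.89 (adjusted p = 0.0975) without te2 1. The glutamate-cysteine ligase subunit gene Gclm (1.04 ± 0.28) rose too, a call lost without sham 2, te2 1 or te2 2, while Nfe2l2, the gene of the regulator NRF2, had a log2 change of -0.68 ± 0.23 (adjusted p = 0.0518). In the other kept cells Prdx1 stood at 672 and 733 CPM by totals in sham and at 1366 and 1428 CPM in te2. The part of free RNA in the rise of Prdx1 was tested only by subtraction, after which it passed.

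Of 34 oxidative phosphorylation genes tested, 8 rose (4.68% of all genes did) and 0 fell, with a median log2 change of 0.39. With thinned sums 3 of 27 rose (4.91% of all genes did), and with members thinned to 500 UMIs 2 of 33 (2.04%). The count of higher genes was 8 without sham 1, 9 without sham 2, 3 without te2 1 and 2 without te2 2. Ndufa4, a small subunit gene of the respiratory chain, stood at 204 and 377 CPM in sham and 1028 and 1089 CPM in te2 (log2 change 1.69 ± 0.26, edgeR adjusted p = 1.06e-05). Cox5a, a cytochrome oxidase subunit gene, stood at 102 and 189 CPM in sham and 529 and 607 CPM in te2 (1.77 ± 0.28, adjusted p = 1.92e-05). Both passed in all 17 alternatives. Most subunits did not move past the test, such as Atp5b (-0.30 ± 0.22) and Cox7c (0.13 ± 0.23).

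Among 16 chaperone genes 4 rose and 0 fell, led by Hspb1, and with thinned sums 1 of 9 rose (4.91% of all genes did). Hsp90b1, the chaperone of the endoplasmic reticulum, stood at 367 and 505 CPM in sham and 850 and 1008 CPM in te2 (log2 change 1.0 ± 0.24; 0.86 and edgeR adjusted p = 0.177 without te2 2). Hsp90ab1 (0.87 ± 0.26) and Hspe1 (0.85 ± 0.26) lost their calls without te2 1 (0.87 and 0.96) or te2 2 (0.79 and 0.70), and Hspe1 also without sham 1 (0.80) or sham 2 (1.18). Of 11 immediate early genes, which respond quickly to handling of cells, Jund (1.06 ± 0.34) and Btg2 (1.57 ± 0.50) were higher and Egr1 lower (-1.58 ± 0.49), and without sham 2, te2 1 or te2 2 none of the 3 passed. In the MHC class I and interferon list of 19, H2-K1 (0.85 ± 0.26), H2-D1 (0.80 ± 0.26) and B2m (0.94 ± 0.27) were higher. None of those 3 passed without sham 1, te2 1 or te2 2, and the interferon-induced gene Isg15 (1.02 ± 0.97) did not pass.

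Of 9 acute phase and innate defence genes, 4 rose and 1 fell. Wfdc2, a secreted protease inhibitor gene, stood at 20.4 and 183 CPM in sham and 698 and 577 CPM in te2 (log2 change 2.17 ± 0.31, edgeR adjusted p = 2.02e-06). It passed without each library in turn, but not with a stricter keratin limit (1.31, adjusted p = 0.0582). Lrg1 rested on only 2 sham counts against 239 in te2, which is 9.01 times as much in CPM by totals (95% counting interval 2.47 to 74.8), and its call was lost without sham 2 (adjusted p = 0.0722). Clu, the clusterin gene, stood at 0 and 170 CPM in sham and 243 and 307 CPM in te2 (1.11 ± 0.34). Without sham 1 its change was 0.72 (adjusted p = 0.144) and without te2 2 it was 0.98 (adjusted p = 0.245). With a stricter keratin limit the change of Clu was -0.018 (adjusted p = 0.994), so that its sign turned. With free RNA subtracted 2 of 8 tested genes of the list rose. Clu (0.92, adjusted p = 0.19) and Lrg1 (2.89, adjusted p = 0.109) did not pass there. Cp fell by 0.72 on the log2 scale (adjusted p = 0.0419) and lost its call without te2 1 (-0.83) or te2 2 (-0.73). It also did not pass with thinned sums (-0.99, adjusted p = 0.074) or members thinned to 500 UMIs (-0.64, adjusted p = 0.14). With a stricter keratin limit its change was -0.19 (adjusted p = 0.866). DESeq2, free RNA subtracted and a stricter luminal limit were among further alternatives where it did not pass. Lcn2 stood in basal cells of all libraries, with a change of 0.38 ± 0.24 (adjusted p = 0.379).

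Surface genes associated with progenitor cells were higher where they passed, 4 of 14 with 0 lower, and 1 of 4 with thinned sums (4.91% of all genes). Ly6a, which encodes the surface protein Sca-1, stood at 0 and 97.4 CPM in sham and 464 and 437 CPM in te2 (log2 change 2.61 ± 0.35, edgeR adjusted p = 5.45e-07), and did not pass with thinned sums (2.26, adjusted p = 0.0926). A Ly6a UMI was seen in 3.75% of sham 2 members and in 17.1% and 15% of te2 members after thinning, and in 5.26% and 6.38% of te2 luminal cells. Epcam, an epithelial adhesion gene, stood at 163 and 377 CPM in sham and 1174 and 953 CPM in te2 (1.75 ± 0.27) and passed in all 17 alternatives. For Ly6c1 the sham sums held 2 counts and the te2 sums 209, or 7.88 times as much by totals (95% counting interval 2.15 to 65.5). Its call was lost without sham 2 (adjusted p = 0.107) or te2 1 (adjusted p = 0.0791). Psca, a prostate surface antigen gene, stood at 0 and 60.9 CPM in sham and 185 and 154 CPM in te2 (1.86 ± 0.43), and under a stricter keratin limit its sign turned (-1.09).

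Summed over proximal luminal markers, te2 basal cells also lay above those of sham. Of the 11 markers of that class, 3 and 9 were detected in the sham basal sums and 11 and 11 in te2. Smr2 and Smr2l, which the rule limits in members, are among the 11 and were in neither sham table. Detection also depends on depth, and the part of depth in these numbers was not tested. The 11 markers summed to 114 and 910 CPM in sham and 2344 and 2152 CPM in te2 basal cells. In the other kept cells they summed to 683 and 1012 CPM in sham and 5808 and 5400 CPM in te2. By totals Psca stood at 0 and 6.47 CPM in the other kept sham cells and at 744 and 670 CPM in te2. After thinning, a Psca UMI was seen in 2.36% and 1.43% of te2 members, against 19.2% and 17% of te2 luminal cells. The part of proximal luminal RNA in the values of Psca, Ly6a, Wfdc2, Clu, Krt7 and Krt19 in basal cells was not tested beyond subtraction of free RNA. After that subtraction Krt7 (0.86, edgeR adjusted p = 0.146) and Clu (0.92, adjusted p = 0.19) did not pass, while Psca, Ly6a, Wfdc2 and Krt19 did.

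The cytoskeleton list held changes both ways, 6 of 24 higher and 4 lower. Anxa1, the annexin A1 gene, stood at 61.2 and 183 CPM in sham and 918 and 850 CPM in te2 (log2 change 2.55 ± 0.30, edgeR adjusted p = 3.57e-08). It passed in all 17 alternatives, and an Anxa1 UMI was seen in 2.27% and 6.88% of sham members and 28.0% and 30.2% of te2 members after thinning. Its share in luminal cells was 3.72%, 3.84%, 20.3% and 18.5%. The profilin gene Pfn1 (1.44 ± 0.26) and Anxa5 (1.25 ± 0.28) rose, with 1.15 (adjusted p = 0.0534) and 1.18 (adjusted p = 0.0925) without te2 2. The actin gene Actb stood at 3672 and 2891 CPM in sham and 1612 and 1559 CPM in te2 (-1.03 ± 0.25; -1.07 and adjusted p = 0.0689 without te2 2). Cnn2, a calponin gene, stood at 163 and 262 CPM in sham and 87.1 and 102 CPM in te2 (-1.31 ± 0.28), and lost its call without sham 2 (-0.70) or te2 1 (-1.20). Acta2, the smooth muscle actin gene, had a log2 change of 0.02 ± 0.53 (adjusted p = 0.992).

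Secreted luminal products other than the rule genes gave 2 of 6 higher and 1 lower. Agr2 (1.66 ± 0.41), a secretory pathway gene, and Defb50 (0.83 ± 0.27), a defensin gene, were higher by edgeR. By totals Agr2 stood at 766 to 1439 CPM and Defb50 at 1087 to 4341 CPM in the other kept cells, above basal cells. Agr2 lost its call without sham 2 (2.03) or te2 2 (0.96), and Defb50 without sham 1 (0.60), te2 1 (1.10) or te2 2 (0.56). With a stricter keratin limit the change of Agr2 was 0.38 (adjusted p = 0.859), and that of Defb50 turned in sign (-0.24, adjusted p = 0.792).

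**Figure D4:**
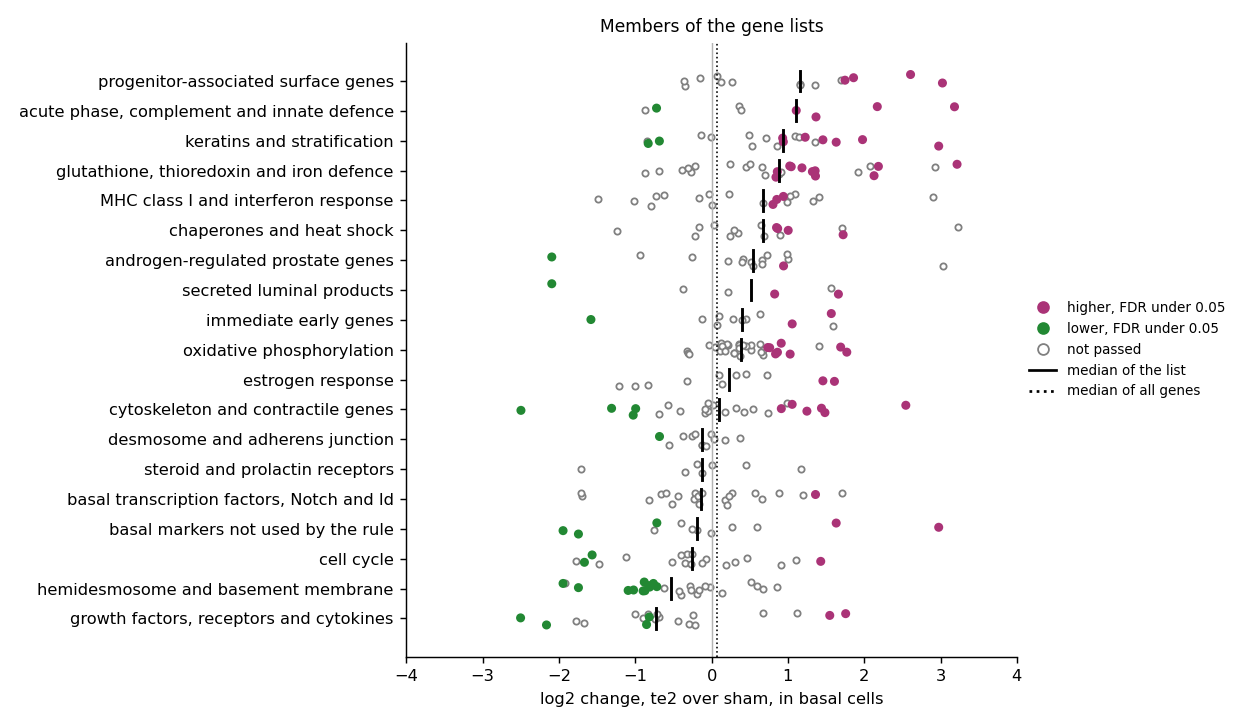
Log2 change, te2 over sham, in basal cells for each tested member of 19 gene lists; filled points passed a false discovery rate of 0.05 (edgeR), short black bars are list medians and the dotted line is the median of all 8783 genes, 0.07. Members with log2 changes beyond 4 either way lie outside the axis. The hemidesmosome and basement membrane list has 11 falls and 0 rises, the glutathione, thioredoxin and iron list 11 rises and 0 falls.

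The last comparison asked whether te2 changed basal cells otherwise than luminal cells of the same libraries. The change of each gene in the 1314 basal cells was set against its change in the luminal cells, as the term of cell class and treatment in 1 edgeR fit. Of 11811 genes, 148 (1.25%) passed, 90 with a change more positive in basal cells (0.762%) and 58 with one more negative (0.491%). The count was 264 without sham 1, 178 without sham 2, 29 without te2 1 and 31 without te2 2. Luminal cells were chosen by Sbp and Spink1 content, and both classes of a library share its dissociation and its free RNA.

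Of the 6 named genes on the negative side, Ccnd2 had the largest difference. In basal cells it stood at 482 and 610.4 CPM in sham and 202 and 204 CPM in te2, on the joint scale of both classes. In luminal cells it stood at 49.2 and 41.7 CPM in sham and 686 and 586 CPM in te2. The D cyclin thus fell in basal cells and rose in luminal cells, with log2 changes of -1.57 and 3.83 and a difference of -5.32 ± 0.25 (adjusted p = 2.42e-94). Ahnak, which encodes a very large scaffold protein under the membrane, stood at 516, 610.4, 624 and 555 CPM in basal cells of the 4 libraries. In luminal cells it went from 60.6 and 26.1 CPM in sham to 541 and 428 CPM in te2, a difference of -3.65 ± 0.24. The differences of Ccnd2 and Ahnak passed in all 13 alternatives run for this comparison.

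The other 4 named genes on this side rose in luminal cells, and of them Krt7 also rose in basal cells (0.93), while Lcn2, Vdr and Ampd3 did not pass there. Lcn2, the gene of the iron-carrier binding protein lipocalin-2, stood at 266 and 254 CPM in sham and 327 and 381 CPM in te2 basal cells, and at 2.29 and 1.30 CPM in sham and 46.4 and 88.9 CPM in te2 luminal cells (difference -4.80 ± 0.47; -3.17 and adjusted p = 0.556 with thinned sums). Its te2 luminal values stayed below every basal value. Vdr, the vitamin D receptor gene, stood at 83.1, 117, 84.3 and 69.5 CPM in basal cells, and at 2.29, 0.869, 26.3 and 23.4 CPM in luminal cells (-4.50 ± 0.63; -3.46 and adjusted p = 0.0575 without sham 2). Krt7 stood at 33.3, 188, 285 and 308 CPM in basal cells and at 8.58, 6.08, 258 and 261 CPM in luminal cells (-4.09 ± 0.43; -1.69 and adjusted p = 0.664 without sham 2), on 2 counts in the sham 1 basal sum. The AMP deaminase gene Ampd3, with 5 basal counts in sham, all in sham 2, had a difference of -4.04 ± 1.12, which turned to 3.74 without sham 2.

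On the positive side, 5 of the 6 named genes fell in luminal cells, and 4 of those 5 did not pass as higher in basal cells. Slc5a3, the myo-inositol transporter gene, stood at 83.1 and 86.5 CPM in sham and 124 and 153 CPM in te2 basal cells, and at 69.2 and 75.1 CPM in sham and 4.31 and 15.3 CPM in te2 luminal cells (difference 3.52 ± 0.37). Its te2 values in basal cells lay above both sham values, with a log2 change of 0.62 ± 0.34 that did not pass (adjusted p = 0.284). Col7a1, the anchoring fibril collagen gene, stood at 0, 122, 110 and 88.0 CPM in basal cells and at 8.58, 21.3, 0.957 and 2.04 CPM in luminal cells (3.58 ± 0.58). Car12, a carbonic anhydrase gene, had changes of 0.36 in basal and -1.84 in luminal cells, a difference of 2.43 ± 0.49 that was 2.13 without te2 2 (adjusted p = 0.218). Itpripl2 fell in both classes, with log2 changes of -3.35 and -6.19, a difference of 2.99 ± 0.63, with adjusted p = 0.183 without te2 1 and 0.137 without te2 2, and 0.78 (adjusted p = 0.958) with thinned sums. The other two rose in basal cells. Cpe, the carboxypeptidase E gene, had 4 counts in sham basal cells, stood at 128 and 155 CPM in te2, and was at 8.0, 4.34, 0.478 and 1.36 CPM in luminal cells (5.57 ± 0.87). Ceacam1, an adhesion molecule gene, stood at 16.6 and 25.4 CPM in sham and 182 and 117 CPM in te2 basal cells, and at 596 and 608 CPM in sham and 410.0 and 373 CPM in te2 luminal cells (3.28 ± 0.47).

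**Figure D5:**
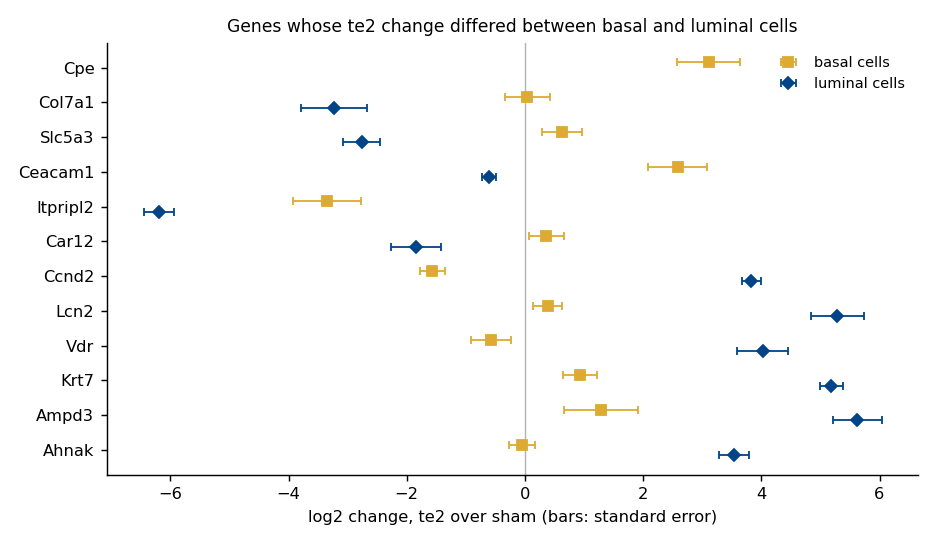
Log2 change, te2 over sham, in basal cells (squares) and luminal cells (diamonds) for the 12 named genes whose change differed between the classes; bars are standard errors. Luminal cells had too few counts for a value of Cpe. Ccnd2 lies at -1.57 in basal and 3.83 in luminal cells, and Slc5a3 at 0.62 and -2.76.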

How the data were processed

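Single-cell libraries of 4 mouse ventral prostates, 2 sham and 2 te2, were read from the UMI counts that the authors deposited, one gene by cell table per animal (10x 3' chemistry, per the labels' protocols). The submitters' processing notes name kallisto 0.46.1, bustools 0.39.4, R 4.3.2, Seurat 5.0.1 and the build GRCm39, without saying what each did. In the deposited tables every gene was in at least 3 cells, and a gene missing from a table was entered as 0. The members and the gene lists were chosen with earlier results of these data known.

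Members' counts were summed per library, without Sbp, Spink1 and 4 hemoglobin genes, and tested in R 4.3.3 with edgeR 4.0.16 (quasi-likelihood, TMM, filterByExpr, Benjamini-Hochberg over all genes tested) and limma 3.58.1. The standard error is the size of the log2 change divided by the square root of F. Cells, thinning and intervals were handled in Python 3.11.15 with numpy 2.4.6 and scipy 1.17.1. Scrublet in scanpy 1.11.5 called 112 of 8091 cells (1.38%) doublets, 30 of them members; they were kept, and left out in an alternative. Alternatives changed the scaling, the filter, the depth, the limits of the rule, the free RNA and the tool (DESeq2 1.42.0), or left out 1 library. The interaction fit compared te2 effects in basal and luminal sums, with at least 20 cells in each.

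Genes were named by a rule: passing at full depth and with thinned sums, no overlap of libraries, mean log2 CPM of at least 5, a level in basal cells at least that of other kept cells, then the 10 largest rises and 10 largest falls; up to 4 members of smallest p per list; and 6 interaction genes each way. Further list members named with values, and the genes that set members apart, were chosen after their values were seen. The fits were tested on simulated data: of 100 genes changed by 2 on the log2 scale, 54 were recovered for te2 against sham and 5 for the interaction, and of 100 changed by 1, 9 and 1. Smr2 and Smr2l, and Sbp and its neighbour Sbpl, are near-identical copies whose reads the counting could split. Depth per library is given above, and intervals cover counting error only. Results for some list members are not reported here.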

Additional observations from a re-analysis of the deposited data

Results flagged for a closer look

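For 12 genes the te2 change differed between basal and luminal cells by the interaction test of edgeR (false discovery rate 0.05, 2 libraries a group). The log2 change in basal cells minus that in luminal cells was 5.57 for Cpe, 3.58 for Col7a1, 3.52 for Slc5a3, 3.28 for Ceacam1, 2.99 for Itpripl2 and 2.43 for Car12. It was -5.32 for Ccnd2, -4.80 for Lcn2, -4.50 for Vdr, -4.09 for Krt7, -4.04 for Ampd3 and -3.65 for Ahnak. With sums thinned to equal totals 5 of these differences did not pass. They were 2.84 for Car12, 2.75 for Ceacam1, 0.78 for Itpripl2, -5.02 for Krt7 and -3.17 for Lcn2 (edgeR adjusted p from 0.0974 to 0.958). Among the others, Ccnd2 and Ahnak passed there, while Cpe, Col7a1, Slc5a3, Vdr and Ampd3 had too few counts to be tested. The part of unequal depth, of free RNA shared within a library, and of unequal numbers of luminal cells in these differences was not tested beyond the alternatives below.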

How the results depend on the processing

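The 650 changed genes (411 higher, 239 lower) were 178 (128 and 50) with DESeq2, 73 (39 and 34) with thinned sums, 153 (74 and 79) with every member thinned to 500 UMIs and 197 (124 and 73) with a stricter keratin limit. The lower count was also 153 without a filter on low counts, 137 with free RNA subtracted and 156 with members of at least 1000 UMIs. Leaving out 1 library gave 148 to 627 genes, 95 to 366 higher and 48 to 261 lower, and the median log2 change of all genes was 0.44 without sham 2. The 148 genes of the interaction were 14 (7 and 7) with thinned sums, 58 (38 higher, 20 lower) with the stricter keratin limit and 83 (40 higher) with at least 1000 UMIs, and 111 were lower with library totals alone. Leaving out 1 library gave 29 to 264, 13 to 163 higher and 15 to 113 lower. The share of members was 1.16%, 4.02%, 20.2% and 23.8% with the stricter keratin limit, 1.89%, 5.65%, 20.2% and 24.2% with cells thinned to 500 UMIs, and 6.25% in sham 2 with at least 1000 UMIs. Leaving out 1 library gave -2.49 to 7.72 for Msmb and -4.47 to 3.74 for Ampd3, the sign turning without sham 2. It also turned for Psca (-1.09), Clu (-0.0179) and Defb50 (-0.24) with the stricter keratin limit; the cause was not tested. Of calls, 63.2% were higher in the main test, 54.7% with totals alone and 48.4% with members thinned. The replicate block gave 476 genes (312 and 164), 470 of them among the 650. The labels do not say that equal numbers mark a pairing, and deviations of same-numbered libraries were not correlated (r = -0.000437 over 1549 genes). The sham 1 sum limits depth: 1 count there is 22.9 CPM.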

Other observations

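Some genes outside the lists, named after their values were seen, also moved in basal cells. Spon2, a secreted matrix protein gene, stood at 408 and 554 CPM in sham and 136 and 155 CPM in te2, a log2 change of -1.81 ± 0.22. Pdpn, which encodes the surface glycoprotein podoplanin, stood at 571 and 633 CPM in sham and 229 and 276 CPM in te2 (-1.28 ± 0.21, edgeR adjusted p = 3.9e-05). Bhlhe41, a circadian repressor gene, stood at 388 and 396 CPM in sham and 164 and 193 CPM in te2 (-1.14 ± 0.23, adjusted p = 0.000911). Dusp6, a phosphatase gene of ERK signalling, changed by -0.89 ± 0.26 (adjusted p = 0.0261). Apoe, the apolipoprotein E gene, stood at 4529 and 4005 CPM in sham and 6232 and 7251 CPM in te2 and did not pass (0.67 ± 0.31, adjusted p = 0.20). Gas6, the gene of a ligand of TAM receptors, stood at 571, 505, 434 and 619.6 CPM in sham 1, sham 2, te2 1 and te2 2, with overlapping groups.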
